A study of Mus musculus with 2 samples.

Results

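Integrins are receptors made of 1 alpha and 1 beta subunit that bridge the extracellular matrix outside a cell and the cytoskeleton inside it. The 10 genes described here encode 4 beta subunits (Itgb1, Itgb3, Itgb4 and Itgb6) and 6 alpha subunits (Itga1, Itga2, Itga3, Itga6, Itga9 and Itgav), and they were found by their gene symbols among the 27998 genes of the deposited tables. They were read in basal, luminal progenitor (LP) and mature luminal (ML) cells of the adult mouse mammary gland and in a sorted basal population. Itgb1, Itga3 and Itga6 were highest in basal cells, and Itga1 and Itga9 were close to undetected in luminal cells. Itgav was at nearly the same level in all 3 classes. So was Itgb4, though its few counts allow differences of up to 1.86-fold between basal and luminal cells.

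The data were 2 libraries of the 10X Chromium 3′ protocol, in which each cell's RNA is tagged with a barcode and each captured molecule is counted once. Both came from untreated females of the inbred strain FVB/NJ, aged 10 weeks and carrying no transgene, and each pooled the cells of 4 mice. The first held 4771 basal cells sorted as Lin-CD29hiCD24+ and the second 3302 total epithelial cells sorted as Lin-CD24+, where Lin- excludes cells bearing TER119, CD31 or CD45. Itgb1 encodes CD29, the antigen that defined the first sort, so its level in that library is not a finding. There was 1 library for each population, so no difference has a replicate check and no test was made, and every interval below is a 95% interval that covers counting error only.

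In the mammary duct an inner luminal layer is surrounded by contractile basal (myoepithelial) cells that rest on the basement membrane. The alpha-beta pair decides what a receptor binds. Itgb1 pairs with many alpha subunits, among them the collagen receptors of Itga1 and Itga2 and the laminin receptors of Itga3 and Itga6. Itgb4 pairs only with Itga6, in the hemidesmosome, which ties keratin filaments to laminin, whereas Itgb3 and Itgb6 pair with Itgav in receptors that recognise the RGD motif of matrix proteins. Itga9 pairs with Itgb1 and binds tenascin and other matrix proteins.

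Cells of the total epithelial library were placed in classes by counts of genes outside the integrin family. Basal cells had 10 or more counts of Krt5, Krt14 and Acta2 together, ML cells had 10 or more of Prlr, Stc2 and Gpx3, and LP cells were other cells with 3 or more of the luminal keratins Krt8, Krt18 and Krt19. This gave 1280 basal-like cells (38.8%), 766 LP-like cells (23.2%) and 1133 ML-like cells (34.3%), written basal, LP and ML from here on, while 26 cells met both the basal and the ML threshold and 97 met none, and these were left out. The classes are ranges of a count rather than types: 150 cells had 5 to 19 counts of the basal genes and 319 had 5 to 19 of the ML genes. The median cell of the basal class held 55 counts of its own genes, 3 of the luminal keratins and 0 of the ML genes, and the median LP and ML cells held 0 counts of the basal genes.

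Levels below are in CPM, the counts of a gene summed over the cells of a class and scaled to a class total of 1000000 counts. Markers that had no part in the rule separated the same way. Summed over 9 basal markers, including Trp63, Cnn1 and Myh11, LP cells were at 0.683% and ML cells at 0.391% of the basal level. The 8 LP markers, including Elf5 and Kit, stood in ML cells at 9.23% of their LP level, and the 6 ML markers, including Pgr and Foxa1, stood in LP cells at 10% of their ML level. Other cells were few: of 4 leukocyte genes, Ptprc, Tyrobp and Cd3e had no count in any class and Lyz2 had 9 counts in the basal, 1 in the LP and 0 in the ML class, while the 6 fibroblast markers summed to 358, 83.4 and 1419 CPM in basal, LP and ML cells, most of it Dcn (345, 76.4 and 1281 CPM), and 12 ML cells carried 3 or more collagen counts. Total epithelial cells held 802 to 12967 counts each, and the median was 1820 for the basal, 2483.5 for the LP and 3403 for the ML class. Sorted basal cells were shallower, at 137 to 1946 counts with a median of 487, and 28 cell barcodes occurred in both libraries.

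The promoter windows of Itgb1, Itga1 and Itgav are shown because these genes stand for the 3 patterns found: enriched in basal cells but present in all, close to undetected in luminal cells, and level across classes. Each line is the 250 bases upstream of the RefSeq start site on the gene's own strand (GRCm38.p6, the build also called mm10), at chr8:128685404-128685653 on the plus strand for Itgb1, chr13:115101965-115102214 on the minus strand for Itga1 and chr2:83724147-83724396 on the plus strand for Itgav. Capitals mark matches to any of 5 motifs searched on both strands.
Itgb1: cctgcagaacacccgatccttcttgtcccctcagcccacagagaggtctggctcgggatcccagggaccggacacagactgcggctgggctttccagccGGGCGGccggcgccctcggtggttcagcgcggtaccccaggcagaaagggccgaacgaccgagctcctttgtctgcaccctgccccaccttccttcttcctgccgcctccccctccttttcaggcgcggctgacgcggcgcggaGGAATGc
Itga1: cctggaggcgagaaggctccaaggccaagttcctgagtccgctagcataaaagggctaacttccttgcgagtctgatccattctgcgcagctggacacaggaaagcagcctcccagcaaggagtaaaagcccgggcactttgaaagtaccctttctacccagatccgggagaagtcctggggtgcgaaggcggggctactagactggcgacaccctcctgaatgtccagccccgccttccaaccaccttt
Itgav: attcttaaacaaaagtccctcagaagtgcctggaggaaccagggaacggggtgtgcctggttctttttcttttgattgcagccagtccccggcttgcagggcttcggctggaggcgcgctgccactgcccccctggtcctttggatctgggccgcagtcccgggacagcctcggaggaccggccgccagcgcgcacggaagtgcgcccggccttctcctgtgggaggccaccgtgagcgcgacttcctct
The Itgb1 window held the GC box GGGCGG from 151 to 146 bases before the start and the letters GGAATG, the core recognised by TEAD factors, from 7 to 2 bases before it, with no overlap between them. Of 32851 promoter windows of the same length, 32.7% held GGGCGG and 12.6% held GGAATG on either strand. Neither the Itga1 nor the Itgav window held these letters or those of the AP-1 site TGANTCA, the TATA box TATAAA or the CCAAT box, which 6.75%, 12.4% and 33.8% of windows held. All 3 windows were richer in G and C than the median window (52.4%), at 68% for Itgb1, 57.6% for Itga1 and 64.4% for Itgav, and they held 21, 10 and 18 CpG dinucleotides against a median of 6. RefSeq windows matched 7 of the 10 genes. No measurement here bears on binding at these windows.

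Itgb1, the shared beta partner, was the most counted of the 10 in every class. Its gene lies at chr8:128685654-128733200 on the plus strand. In basal cells it had 1232 counts, or 465 CPM (439 to 491). In LP cells it had 283 counts, or 131 CPM (116 to 147), and in ML cells 707 counts, or 171 CPM (159 to 184). Basal cells thus stood above both luminal classes, with a ratio of 3.54 (3.11 to 4.05) to LP and 2.72 (2.47 to 2.98) to ML cells. LP cells were somewhat below ML cells, with a ratio of 0.766 (0.665 to 0.881), which moved to 0.903 when class totals were rescaled by TMM, a normalisation that centres the bulk of genes.

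The same order held per cell. As counted, at least 1 Itgb1 count was found in 55.9% of the basal class, 27.9% of the LP class and 41.4% of the ML class, but basal cells were also the shallowest of the 3 classes. After every cell was thinned to 800 counts, the share with Itgb1 was 29.9% (27.4 to 32.5) among basal, 10.7% (8.6 to 13.1) among LP and 13.2% (11.3 to 15.4) among ML cells. Each of 9 basal markers stood at 0.26% to 1.08% of its basal level in LP cells and at 0.119% to 2.07% in ML cells, whereas Itgb1 stood at 28.2% and 36.8%. Whether carried-over basal RNA added to the luminal Itgb1 counts was not tested.

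Itgb4, the laminin-binding beta subunit of hemidesmosomes, did not separate the lineages. It had 28 counts in basal (10.6 CPM, 7.02 to 15.3), 23 in LP (10.7 CPM, 6.75 to 16) and 49 in ML cells (11.9 CPM, 8.77 to 15.7). The ratio of basal to LP cells was 0.991 (0.55 to 1.8) and that of basal to ML cells 0.891 (0.539 to 1.45). Differences of up to 1.86-fold are therefore within the intervals. Its partner Itga6 differed more than 6-fold between the same cells. The gene lies at chr11:115974709-116008412, and its exons overlap a non-coding RNA on the other strand, B230344G16Rik, which had 2 counts in total epithelium.

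Itgb3 and Itgb6, the partners of Itgav, were rare. Itgb3 had 11 counts in basal (4.15 CPM, 2.07 to 7.42), 9 in LP (4.17 CPM, 1.91 to 7.91) and 6 in ML cells (1.45 CPM, 0.533 to 3.16), and its intervals overlapped throughout. Itgb6, the epithelial member of the pair, had 13 counts in basal (4.9 CPM, 2.61 to 8.38), 18 in LP (8.34 CPM, 4.94 to 13.2) and 14 in ML cells (3.39 CPM, 1.85 to 5.68). It was the only 1 of 6 subunits compared that was 2-fold or more apart between LP and ML cells, with a ratio of 2.46 (1.16 to 5.35), where 28.4% of all 9724 genes compared were that far apart in either direction. Under TMM the median of all genes shifted by 0.24 (log2) for LP against ML cells, and the higher share of all calls moved from 37% to 50.9%. The Itgb6 difference rested on 18 against 14 counts, and the ratio was 1.58 when the basal and ML thresholds were raised to 20 counts.

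Itga6, the laminin receptor subunit known as CD49f and widely used to enrich basal cells, had a larger ratio of basal to luminal cells than Itgb1. It had 665 counts in basal (251 CPM, 232 to 271), 76 in LP (35.2 CPM, 27.7 to 44.1) and 156 in ML cells (37.7 CPM, 32.1 to 44.2). LP and ML cells did not differ beyond counting error, with a ratio of 0.933 (0.7 to 1.23), and basal cells were 7.12-fold (5.61 to 9.15) above LP and 6.64-fold (5.57 to 7.96) above ML cells. Thinned to 800 counts, the share of cells with an Itga6 count was 17.1% in the basal, 2.61% in the LP and 3.88% in the ML class. The gene lies at chr2:71745616-71858416 on the plus strand.

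Itga3, the other laminin-binding alpha subunit, followed Itga6 at a lower count. It had 93 counts in basal (35.1 CPM, 28.3 to 43), 11 in LP (5.1 CPM, 2.54 to 9.12) and 42 in ML cells (10.2 CPM, 7.32 to 13.7). The ratio was 6.88 (3.67 to 14.3) to LP and 3.45 (2.37 to 5.09) to ML cells. LP cells lay at 0.501 (0.233 to 0.991) of ML cells, next to the 2-fold line, and crossed it when collagen-positive cells were left out. The basal to LP ratio was 16.8 among cells of 1500 to 3500 counts, where few LP counts remained.

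Itga1 and Itga9 were the subunits closest to basal-restricted. Itga1, a collagen receptor subunit, had 23 counts in 23 basal cells (8.67 CPM, 5.5 to 13), 0 in LP cells and 1 in ML cells (0.242 CPM, 0.00613 to 1.35). Itga9 had 44 counts in 42 basal cells (16.6 CPM, 12.1 to 22.3), 0 in LP cells and 1 in ML cells (0.242 CPM, 0.00613 to 1.35). A count of 0 in the 766 LP cells allows up to 1.39 CPM (3 counts over the class), so by that floor Itga1 was at least 6.24-fold and Itga9 at least 11.9-fold higher in basal cells. With the counting error of the basal counts taken in, the lower 95% limits of these ratios were 4.68 and 9.31. Against the 1 ML count the ratios were 35.8 (5.82 to 1477) and 68.6 (11.7 to 2769), and their width shows how little a 1-count denominator fixes. Both genes reached the minimum of 20 summed counts for a comparison through their basal counts, so only a basal excess could have been found for them.

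Itga2, the collagen receptor subunit whose gene lies 20995 bases from Itga1 on chromosome 13, was too rare to compare. It had 1 count in basal (0.377 CPM, 0.00955 to 2.1), 5 in LP (2.32 CPM, 0.752 to 5.41) and 4 in ML cells (0.968 CPM, 0.264 to 2.48). The neighbours thus differed in where their few counts fell, at 23 of 26 in basal cells for Itga1 and 1 of 10 for Itga2 in the total epithelial library. The Itga1 locus (chr13:114953096-115101964) also contains Pelo on the same strand, with no shared exon, and Gm49395, whose exons overlap it and which is not in the tables.

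Itgav was level across the lineages at a depth that would have shown a 2-fold difference. It had 119 counts in basal (44.9 CPM, 37.2 to 53.7), 86 in LP (39.8 CPM, 31.9 to 49.2) and 178 in ML cells (43.1 CPM, 37 to 49.9). The ratio of basal to LP cells was 1.13 (0.846 to 1.5) and that of basal to ML cells 1.04 (0.819 to 1.32). Thinned shares were 3.67%, 3.66% and 3.71% of cells.

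Over the family, 5 of the 9 subunits that could be compared were 2-fold or more higher in basal than LP cells (Itgb1, Itga1, Itga3, Itga6 and Itga9), where 22.3% of the 9604 genes compared were. The same 5 genes were 2-fold or more higher in basal than ML cells, of 8 compared, where 20.4% of 10403 genes were. Without Itga1 and Itga9, which could only have been found higher, the counts were 3 of 7 against LP and 3 of 6 against ML cells. None was 2-fold or more lower in basal cells, where 12.3% of all genes were against LP and 19.6% against ML cells. Under TMM the median of all genes shifted by -0.24 (log2) for basal against LP cells, and the higher share of all calls moved from 64.4% to 52.5%; the same 5 subunits stayed 2-fold or more higher.

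**Figure D1:**
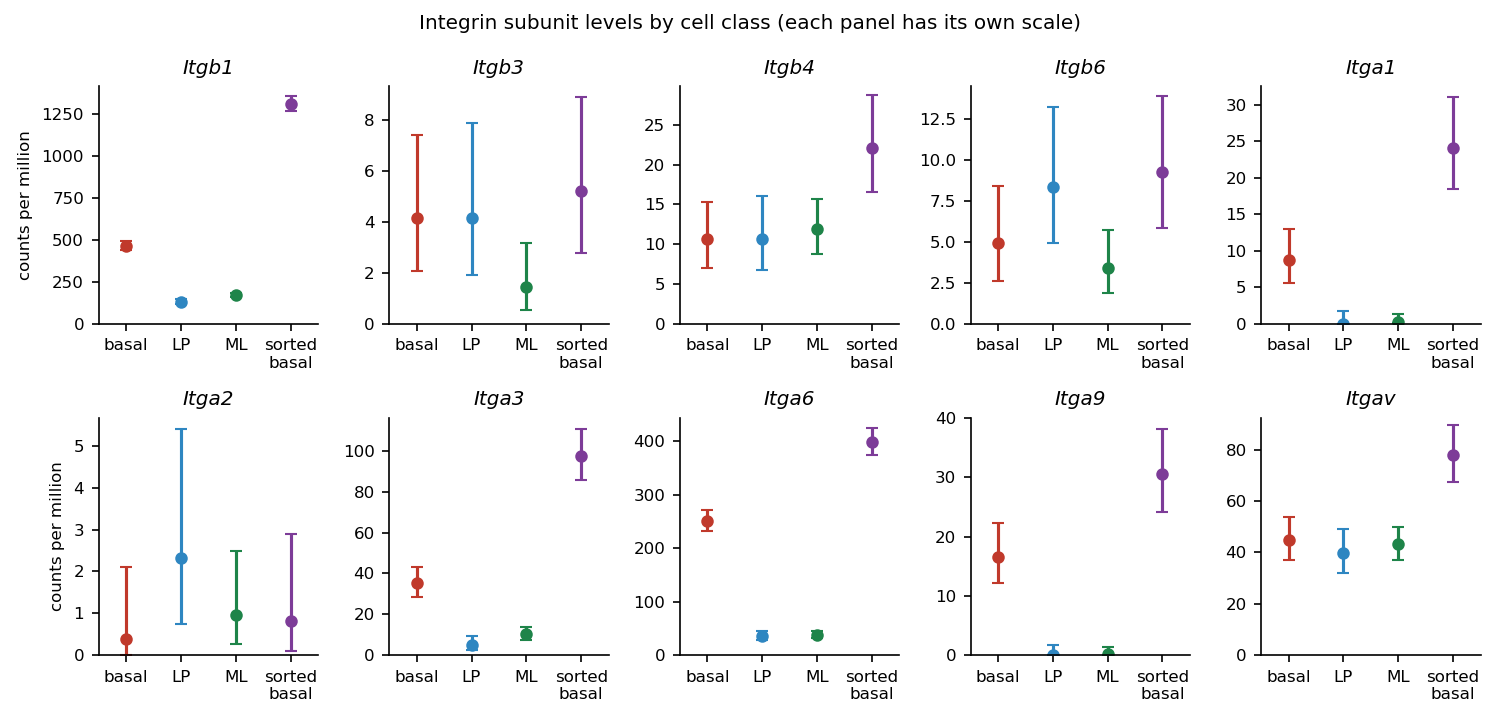
Each panel plots 1 integrin subunit in CPM for basal, LP and ML cells of the total epithelial library and for the sorted basal library, with points for summed counts and bars for exact Poisson 95% intervals. Itgb1, Itga3, Itga6, Itga1 and Itga9 sit higher in basal than in LP and ML cells, whereas Itgav lies between 39.8 and 44.9 and Itgb4 between 10.6 and 11.9 in all 3 classes.

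**Figure D2:**
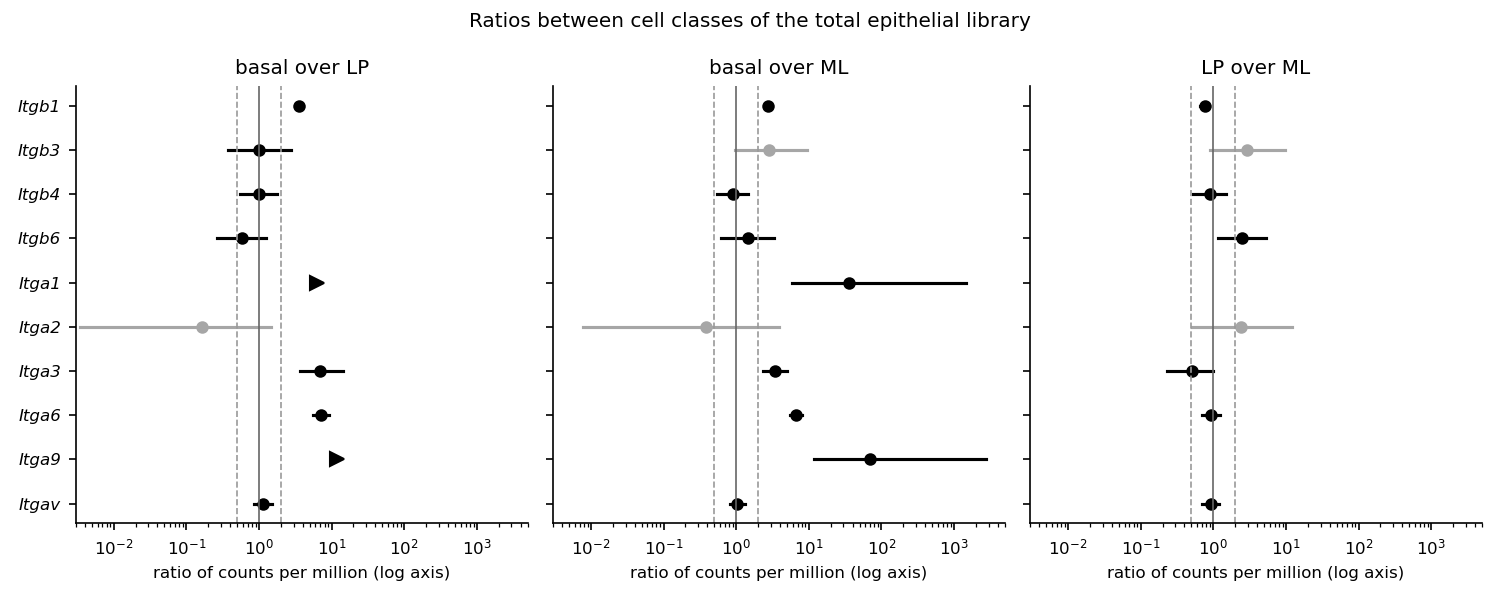
Ratios of CPM for each subunit on a log axis, with exact conditional 95% intervals, for basal over LP, basal over ML and LP over ML cells. Arrowheads are lower bounds where the LP count was 0, grey points had under 20 summed counts, and dashed lines mark 2-fold; 5 subunits lie right of the 2-fold line in both basal panels.

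The mix of subunits differed between the classes of the total epithelial library. Alpha subunits made up 42.4% (40.3 to 44.5) of the counts of the 10 genes in basal cells, 34.8% (30.7 to 39.1) in LP and 33% (30.3 to 35.8) in ML cells. The sorted basal library had an alpha share of 31.9% (30.6 to 33.2), but Itgb1, the gene of the sort, took 66.3% of its counts of the 10 genes. Of the beta counts, Itgb1 held 3258 of 3349 in the sorted library and 1232 of 1284 in basal cells. The lower alpha share of the sorted library thus rests on a level that is not a finding. Itga6 took 29.8%, 14.9% and 13.5% of the counts of the 10 genes in basal, LP and ML cells. Itgav took 5.34%, 16.8% and 15.4%, although its own level in CPM was nearly the same in the 3 classes. These shares compare 3′ counts of the same genes between classes and say nothing of the relative level of different subunits in a cell.

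In cells thinned to 800 counts, 52.1% of basal cells had none of the 10 genes, against 81.6% in the LP and 78.1% in the ML class, and no luminal cell had more than 2 of them while basal cells had up to 4. Within basal cells Itgb1 was no more frequent where Itga6 was detected: it was found in 27.9% (22 to 34.3) of the 219 basal cells with Itga6 and in 30.3% (27.6 to 33.2) of those without. For Itga3 the shares were 40.6% (23.7 to 59.4) and 29.6% (27.1 to 32.3), with overlapping intervals. At this depth most cells with the RNA have no count, and such shares do not measure co-expression of the proteins.

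**Figure D3:**
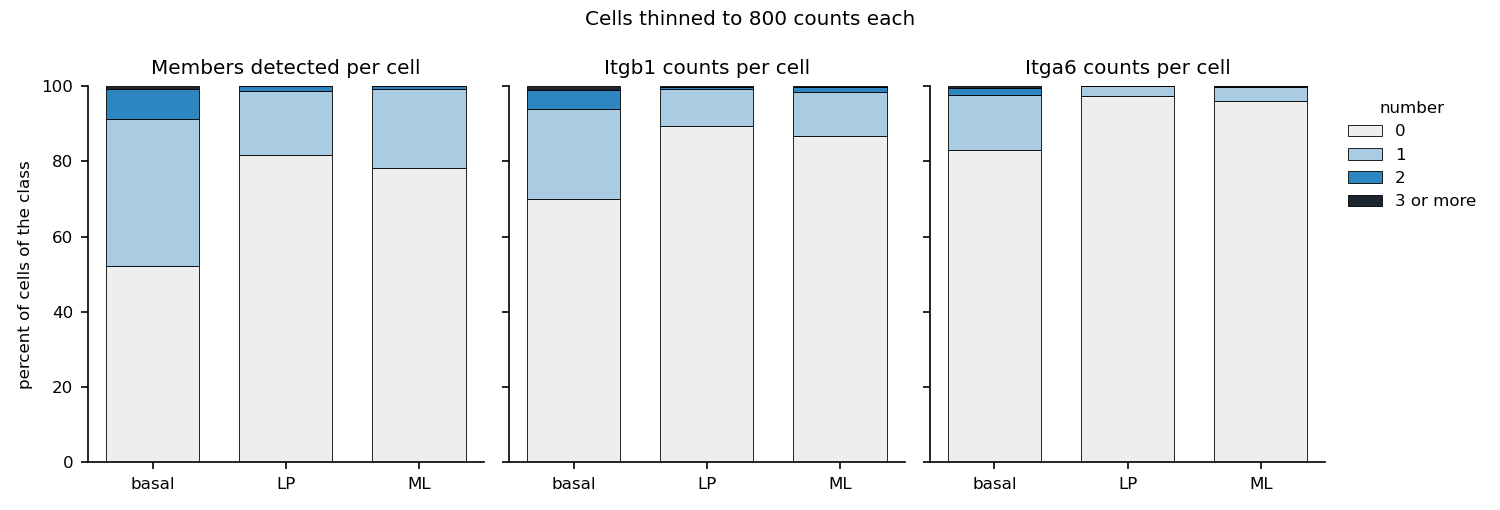
Stacked bars give the percent of basal, LP and ML cells, each cell thinned to 800 counts, by the number of the 10 genes detected and by their counts of Itgb1 and of Itga6. No count of Itgb1 was seen in 70.1% (basal), 89.3% (LP) and 86.8% (ML) of the cells.

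All 4771 cells of the sorted basal library were set against the basal cells of total epithelium. By the same count rule 1757 of the sorted cells were basal and 195 LP. A further 2811 met none of the thresholds, in a library with a median of 487 counts per cell. Sort, depth and library cannot be told apart here, since each population is 1 library. Itgb1 had 3258 counts there, or 1309 CPM (1265 to 1355), which is 2.82 times (2.64 to 3.01) the basal level. The other subunits that were 2-fold or more higher were Itga3, at 97.6 CPM (85.7 to 111) with a ratio of 2.78 (2.18 to 3.58), Itga1, at 24.1 CPM (18.4 to 31) with 2.78 (1.69 to 4.71), and Itgb4, at 22.1 CPM (16.6 to 28.8) with 2.09 (1.3 to 3.43). That is 4 of 9 compared, where 29.1% of the 10114 genes compared were 2-fold or more higher in the sorted library, and none of the 9 was 2-fold or more lower, where 15.4% of genes were. Without Itgb1, the gene of the sort, it was 3 of 8.

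The other 5 were closer to the basal class. Itga6 stood at 399 CPM (375 to 425) with a ratio of 1.59 (1.44 to 1.76), Itgav at 78 CPM (67.4 to 89.7) with 1.74 (1.38 to 2.2), and Itga9 at 30.5 CPM (24.1 to 38.2) with 1.84 (1.25 to 2.73). Itgb6 stood at 9.24 CPM (5.86 to 13.9) with 1.89 (0.916 to 4.05), and Itgb3 at 5.22 CPM (2.78 to 8.93) with 1.26 (0.521 to 3.1). All genes compared had a median ratio of 1.39, and the ratios of 8 of the 9 subunits lay above it and that of Itgb3 below. The intervals of Itgav, Itga9, Itgb4, Itgb6 and Itgb3 include that median, and Itgb1 is the gene of the sort. Scaling by TMM shifted that median by -0.47 (log2) and the higher share of all calls from 65.4% to 34.6%, and under it Itgb1 was at 2.03, Itga1 and Itga3 at 2.01, Itgb4 at 1.51, Itga6 at 1.15 and Itgb3 at 0.909.

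The libraries also differed in depth. In cells thinned to 400 counts, Itgb1 was found in 36.3% (34.6 to 38) of sorted and 17.4% (15.4 to 19.6) of basal cells. For Itga6 the shares were nearer, at 11.8% (10.7 to 13) and 9.22% (7.69 to 10.9). Thinning left out 1594 sorted cells (33.4%) below 400 counts. Ribosomal protein genes took 4.44% of the counts of the sorted library and 8.94% of those of basal cells, and the 6 fibroblast markers summed to 605 CPM against 358 CPM. Dcn was the largest of them and lower in the sorted library, at 254 against 345 CPM. The collagen markers were higher there, with Col3a1 at 195 against 2.64 CPM, Col1a1 at 80.8 against 2.64 CPM and Col1a2 at 62.7 against 6.03 CPM. The part of these differences in the result was not tested. Among the 1757 sorted cells that met the basal rule, Itga6 was at 447 CPM (410 to 487), the ratio of Itgb4 to basal cells was 1.98 and that of Itgb6 was 2.72, while Itga1 and Itga3 stayed 2-fold or more higher.

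**Figure D4:**
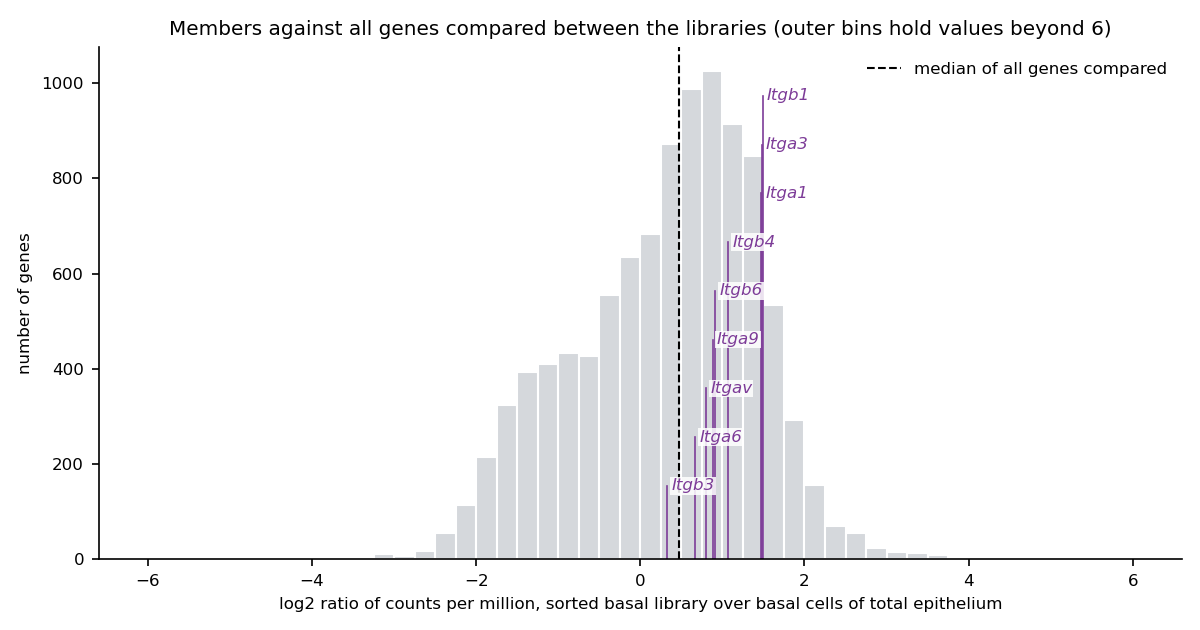
The histogram counts all 10114 genes compared by their log2 ratio of CPM, sorted basal library over basal cells of total epithelium, with the 9 compared subunits as labelled vertical lines whose height has no meaning. The dashed line is the median of all genes at 0.47; Itgb1, Itga3 and Itga1 lie near 1.5 and Itgb3 left of the median.

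Of 18 further integrin genes, 6 had 20 or more counts in either library. Itga5, the fibronectin receptor subunit, was at 14.7, 3.71 and 4.84 CPM in basal, LP and ML cells. Itga8, another RGD-binding partner of Itgb1, was at 26, 43.5 and 5.81 CPM, and was 7.5-fold (4.75 to 12.3) higher in LP than ML cells. Itgb8, a partner of Itgav, was at 6.79, 5.56 and 0.968 CPM.

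Itgb5, also a partner of Itgav, was at 29.4, 12.5 and 25.9 CPM, so it was lower in LP cells, with a ratio of 0.483 (0.304 to 0.743) to ML cells. Itga2b, known from platelets, was at 7.16, 1.85 and 3.63 CPM, and Itga7, a laminin receptor subunit of muscle, had 7 counts in basal cells (2.64 CPM) and 0 in both luminal classes. In the sorted library Itgb5 was 4.32-fold (3.36 to 5.6) and Itga7 6.09-fold (2.7 to 16.1) above the basal class. Itga5 was also 2-fold or more higher, at 39 CPM (31.6 to 47.5) against 14.7 CPM. That is 3 of 6 further subunits compared, with none lower, where 29.1% of all genes were higher and 15.4% lower. Of the 40 sorted Itga7 counts, 4 lay in the 1757 sorted cells that met the basal rule (3.34 CPM, 0.91 to 8.55), whereas Itgb5 was at 133 CPM (113 to 155) in those cells. Itga4, Itgad, Itgae, Itgax and Itgb2l had no count in either library.

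The matrix proteins that these receptors bind split by kind. Of 11 laminin and basement membrane genes compared, 10 were 2-fold or more higher in basal than LP cells (22.3% of all genes were), and of 12 compared with ML cells 9 were higher and 1 lower (20.4% and 19.6% of all genes). Col4a1, a collagen IV chain, was at 119, 1.85 and 2.66 CPM in basal, LP and ML cells. Lamb3, a chain of a laminin that Itga3 and Itga6 receptors bind, was at 241, 44.9 and 7.02 CPM, and Lamb1, a chain of other laminins, at 91.6, 7.88 and 5.08 CPM. Lama5 was the 1 chain that was higher in ML cells, at 74.5 CPM against 23 in basal cells.

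The list of RGD and other matrix ligands had no common direction, with 6 of 13 higher and 5 lower in basal than LP cells, and 6 of 15 higher and 4 lower than in ML cells. Of all genes, 22.3% were higher and 12.3% lower against LP, and 20.4% and 19.6% against ML cells. Spp1, osteopontin, was at 1733, 41912 and 3789 CPM in basal, LP and ML cells, and Mfge8, a milk fat globule protein, at 663, 6361 and 715 CPM, so both were highest in LP cells. Cyr61, a matricellular protein, was at 913, 1888 and 527 CPM. Postn, periostin, was at 665, 5.56 and 4.84 CPM in the same order.

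Inside the cell, genes listed as activators and adaptors of the integrin tail, not all of which bind it directly, were mostly higher in basal cells. They were higher at 14 of 19 against LP and 17 of 19 against ML cells, with none lower, where 22.3% and 20.4% of all genes were higher. Actn1, an actin crosslinker, was at 577, 81.1 and 126 CPM, Flna, filamin A, at 318, 19.9 and 10.9 CPM, Ilk, the integrin-linked kinase, at 337, 99.6 and 64.6 CPM, and Pdlim7 at 347, 24.1 and 34.4 CPM. Of 12 adhesion kinases and scaffolds, 5 were higher and 1 lower against LP cells, and 6 higher and 1 lower against ML cells. The shares over all genes were 22.3% and 12.3% against LP, and 20.4% and 19.6% against ML cells. Src was at 33.6, 14.4 and 15.2 CPM, Bcar1, a Src substrate, at 64.9, 20.8 and 24.7 CPM, Nedd9 at 104, 95 and 12.1 CPM, and Rap1b, a GTPase that activates integrins, at 495, 504 and 171 CPM.

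Of 6 genes listed as inactivators, not all of which are established as such, 5 could be compared. Against LP cells 1 was higher and 1 lower, and against ML cells 1 was higher and 2 lower. The 1 lower against LP cells was Ass1, which encodes a metabolic enzyme, at 6.03, 16.7 and 7.98 CPM in basal, LP and ML cells. Over all genes 22.3% were higher and 12.3% lower against LP, and 20.4% and 19.6% against ML cells. With 5 genes the tally is too small to set against these shares. Itgb1bp1, which competes with activators at the Itgb1 tail, was at 52.8, 21.8 and 34.8 CPM, Dab2 at 15.5, 23.6 and 2.9 CPM, Sharpin at 18.9, 16.7 and 42.8 CPM, and Nisch at 85.6, 102 and 175 CPM. Of the 8 hemidesmosome and tetraspanin partners, 4 were higher and 2 lower against LP cells, and 2 higher and 2 lower against ML cells, the latter near the 20.4% and 19.6% of all genes, where against LP cells 22.3% were higher and 12.3% lower. This tally mixes 2 kinds of gene. Among hemidesmosome genes, Col17a1 was at 104, 1.39 and 0.968 CPM in basal, LP and ML cells and Dst at 204, 30.1 and 75 CPM. Plec was at 30.9, 13.4 and 36.8 CPM, so it was higher than in LP but not ML cells. Cd151, the tetraspanin bound to laminin receptors, was at 376, 140 and 249 CPM. Cd9 was at 2894, 2796 and 6785 CPM, Cd81 at 1404, 4313 and 954 CPM, and Cd82 at 22.6, 305 and 643 CPM.

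**Figure D5:**
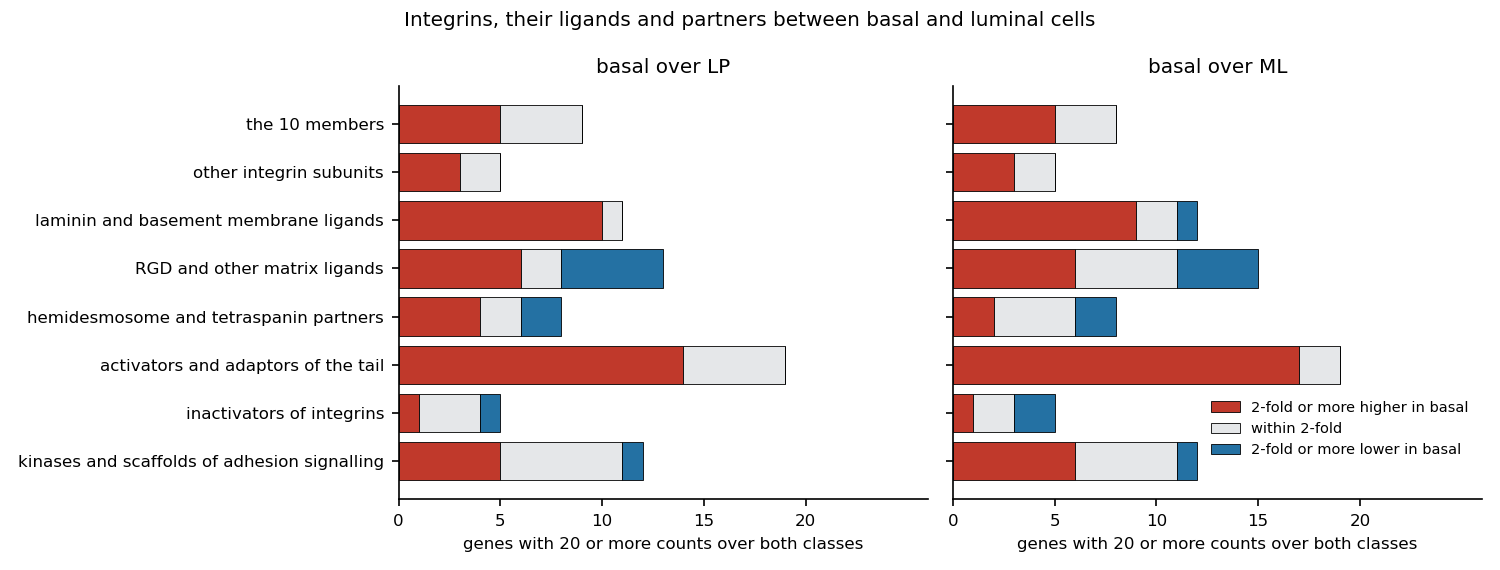
Bars count the genes of each list with 20 or more summed counts, split by whether they were 2-fold or more higher, within 2-fold or 2-fold or more lower in basal than LP cells (left) or ML cells (right). Laminin and basement membrane genes and tail adaptors are mostly higher in basal cells, whereas RGD and other matrix ligands fall on both sides, at 6 higher and 5 lower against LP cells.

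Genes with a similar pattern were ranked by Euclidean distance in log2(CPM + 10), centred per gene, over the 3 classes and the sorted library (4 points, 7286 genes with 100 or more counts). Nearest to Itgb1 were Mdm2 (distance 0.104), Ripk1 (0.113) and Ajuba (0.135), and nearest to Itgav were Cep63, Akirin2 and Ube4b (0.0305 to 0.0455). For Itgb1, the gene of the sort, 1 of the 4 points is the sorted library. Its neighbours therefore rest in part on a level that is not a finding. Nearest to Itga3 were Tm7sf3, Apbb1 and Trim32 (0.15 to 0.183), and nearest to Itga6 were Gnai1 (0.145), Sema3c (0.163) and Mef2c (0.165). The added 10 CPM compresses low levels, so a near gene need not have the same ratio: Gnai1 was at 46.8, 0.927 and 1.45 CPM in basal, LP and ML cells and Mef2c at 58.5, 1.39 and 0.726 CPM, which are wider gaps than that of Itga6. The other 6 subunits had 102 counts or fewer in total epithelium, and their neighbours are not named.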

How the data were processed

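Per the labels the authors ran Cell Ranger 1.2.1 on build mm10, and they deposited whole-number counts of unique molecules for each gene and barcode, with no normalization. Such counting collapses reads of 1 molecule, chooses the barcodes that hold cells and drops reads shared between near-identical genes. The 10 genes, the class rule and all gene lists were chosen with earlier results of these data known. Ccn1 and Ccn2 are not in the tables under those symbols.

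Counts were summed over the cells of a class, divided by the class total and given as CPM. CPM carry exact Poisson intervals, shares of cells exact Clopper-Pearson intervals and ratios exact conditional binomial intervals, at 95%. A ratio was taken with 20 or more counts over both groups, and 2-fold was the line for calling a difference. No cell was removed for doublets and no caller was run. The named genes were all 10 subunits, further integrin genes with 20 or more counts in a library, and per list up to 4 genes of highest class CPM among those 2-fold apart between basal and luminal cells. A gene that this rule names is not reported here. Itga4, Itgad, Itgae, Itgax, Itgb2l, Itgb7, Itgbl1, Lama5, Ass1, Col17a1, Dst and Plec fall outside this rule and were named after their values were seen. Alternatives covered class thresholds, depth, scaling (edgeR 4.0.16 TMM, median of ratios), thinning and the count minimum. Positions are from GENCODE for GRCm38, promoters from RefSeq. The ratio code was tested on simulated data. Python 3.11.15, numpy 2.4.6, scipy 1.17.1 and R 4.3.3 were used.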

Additional observations from a re-analysis of the deposited data

Results flagged for a closer look

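Integrin RNA was also counted in the 97 cells of total epithelium that met none of the class thresholds and entered no comparison, at levels above the 18.8 CPM that 0 counts in this group would allow. Itgb1 was at 363 CPM (275 to 469, 58 counts), between the ML and the basal level. Itga6 was at 43.8 CPM (17.6 to 90.2, 7 counts) and Itgav at 37.5 CPM (13.8 to 81.6, 6 counts), and both intervals include the luminal levels. Of these cells 34 (35.1%) carried 3 or more counts of Col1a1, Col1a2 and Col3a1, and the 6 fibroblast markers summed to 8489 CPM over the group.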

How the results depend on the processing

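The number of subunits 2-fold or more higher in basal cells stayed within 1.5 times its value under all 14 alternatives for LP and for ML cells, and so did the sorted library's under 9, although its members changed: Itgb4 fell under 2-fold in 5 of the 9 (1.98 in sorted cells meeting the basal rule, 1.85 thinned to 400, 1.51 by TMM, 1.6 by median of ratios, 1.99 with totals free of mitochondrial and ribosomal genes), Itgb6 passed it in 1 (2.72, cells meeting the basal rule) and Itga9 in 1 (2.01, cells of 500 to 1500 counts). No ratio changed direction while remaining called. The count apart between LP and ML cells, 1 as reported, was less stable: it was 2 with basal and ML thresholds of 5, without collagen-positive cells and with totals free of mitochondrial and ribosomal genes (Itga3 crossed the line in each), 3 with no count minimum (Itgb3 and Itga2 were then compared), and 0 with thresholds of 20, in cells of 1500 to 3500 counts and after thinning to 800 (6, 4 and 3 subunits compared). Itga1 fell under the 20-count minimum without dual-lineage cells, in cells of 1500 to 3500 counts and after thinning. Of single ratios, 6 of 116 (basal to LP), 6 of 107 (basal to ML), 2 of 79 (LP to ML) and 10 of 76 (sorted to basal) left their counting interval. No paired analysis was possible because each population is 1 library. Depth limits Itga2, Itgb3, Itgb6 and Itga1, each with 45 or fewer counts in total epithelium.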

Other observations

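The cells of no class differed by collagen content. In the 34 collagen-positive cells Itgb1 was at 529 CPM (367 to 740) and was detected in 17 cells, Itga6 had 1 count, and Itgb7 (8 counts) and Itgbl1, an integrin-like gene (5 counts), were found in 3 and 4 cells. In the other 63 cells Itgb1 was at 251 CPM (161 to 373). The 26 cells that met both the basal and the ML threshold, with a median of 4609 counts each, had Itgb1 at 233 CPM (156 to 335) and Itga6 at 145 CPM (85.7 to 229), both between the basal and the ML values.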
